A study of Mus musculus with 6 samples.

Results

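The 46 genes described here encode the machinery that licenses replication origins and runs the DNA replication fork. They were chosen by function, from the subunits of the origin recognition complex (ORC), the helicase loaders and their inhibitor geminin, the MCM2-7 helicase and its activators, MCM8, the replicative polymerases with primase, the sliding clamp and its loader, replication protein A (RPA), and the enzymes that finish Okazaki fragments. All 46 were found among the 23183 gene symbols of the data, and all 46 passed the filter on low values (3 or more libraries at an FPKM of 1 or above). FPKM counts the fragments of a gene per kilobase of its transcript, relative to the mapped fragments in total.

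The values come from mRNA-seq of sorted double positive (DP) thymocytes, developing T cells with CD4 and CD8 together on their surface, from C57BL/6 mice at 6 weeks of age. The WT group was NSRP1f/f, with the floxed *Nsrp1* gene and no Cre, and the NSrp70-cKO group was NSRP1f/fCD4Cre, in which the *Cd4* promoter drives Cre in thymocytes from about the DP stage. NSrp70, the product of *Nsrp1*, is a splicing factor of nuclear speckles. Each group had 3 libraries, and nothing in the sources used here says that they came from separate mice, so p-values measure the spread between libraries.

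Before a cell divides, ORC marks replication origins, and CDC6 and CDT1 load the MCM2-7 ring there as an inactive helicase. Geminin binds CDT1 and blocks loading outside G1, and the kinase CDC7 with DBF4, together with CDC45, the GINS complex and MCM10, switches the loaded ring on. Polymerase alpha with primase then starts each strand, the clamp loader RFC places the clamp PCNA, polymerases epsilon and delta extend the strands, RPA coats single-stranded DNA, and FEN1 and ligase 1 join the Okazaki fragments. Many of these genes are known targets of the E2F transcription factors, and DP thymocytes include a dividing early stage and a resting later stage.

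The targeted gene appears in the files by an earlier symbol, *Ccdc55*. FPKM of *Nsrp1* was 20.2, 20.7 and 21.1 in WT 1, 2 and 3 against 17.7, 15.8 and 15.0 in cKO 1, 2 and 3. The cKO values lay below the WT values, and transcript of the gene remained in the libraries labelled cKO. A value for the whole gene cannot tell intact transcript from transcript without the floxed part. By western blot, the paper reports a significant reduction of NSrp70 protein in cKO thymocytes. The mapped depth, estimated from the steps of 1 fragment in the FPKM values, was 20.7 to 20.8 M fragments in WT and 13.1, 20.6 and 17.4 M in cKO 1, 2 and 3 (M, mega), so that at an FPKM of 1 a transcript of 1 kb holds only 10.5 to 16.6 fragments. The WT libraries differed from one another by a variance of 1.51 to 1.67 times counting noise, against 33.8 to 75.9 times for the cKO libraries. Calls are therefore also given with the mean of the WT libraries entered as 1 sample. All 4 chromosome Y genes examined were at 0 in every WT library and above an FPKM of 1 in every cKO library, so sex and genotype cannot be told apart. The 8 fixed DP markers, which include *Cd4*, *Cd8a* and *Rag1*, were above an FPKM of 1 in every library, with sums of 4500 to 4539 in WT and 5659 to 7291 in cKO.

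Transcripts of the replication genes were higher in cKO than in WT DP thymocytes across nearly every step of the pathway. Of the 46 genes, 40 were higher, 1 (*Cdt1*, the MCM loading factor) was lower, and 5 (*Orc1*, *Orc4*, *Cdc7*, *Pole4* and *Pold1*) did not pass an adjusted p of 0.05 from limma. Over all 10326 genes tested, 35.8% were called higher and 29.8% lower. The median log2 fold change was 0.87 over the 46 genes and 0.039 over all genes tested. The replication genes called higher by a log2 fold change of 1 or more numbered 16, against 3.88% of all genes tested. The 3 cKO values exceeded every WT value for 41 of the 46 genes and for 39.2% of all genes, and were below every WT value for 1 of the 46 and for 33.3% of all genes. In bulk libraries, a larger share of dividing cells and more of these transcripts per cell cannot be told apart.

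**Figure D1:**
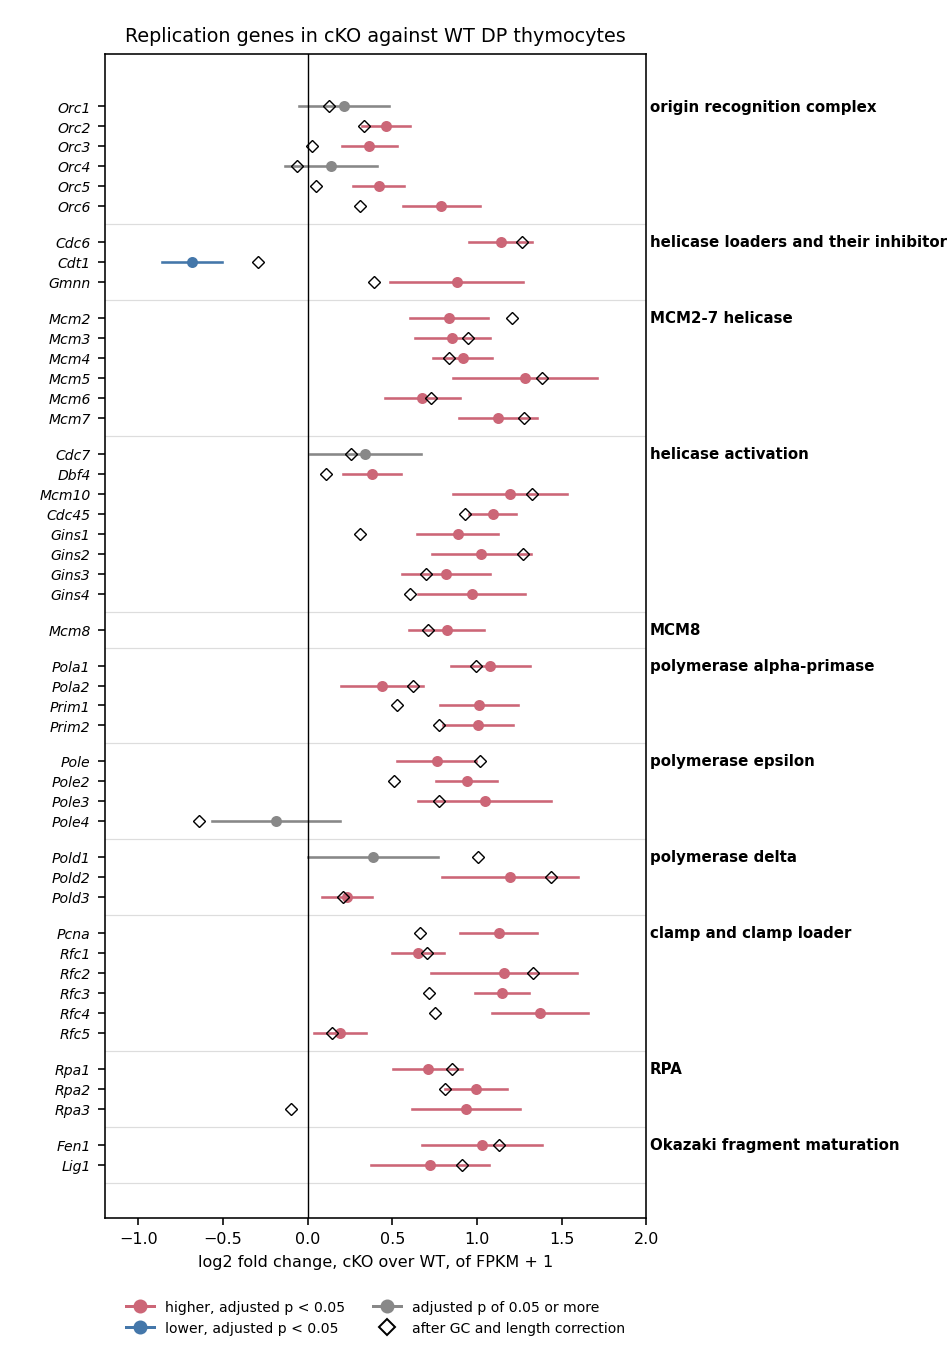
Log2 fold change of FPKM + 1 (cKO over WT, horizontal axis) of each of the 46 replication genes, grouped by role. Filled circles are the limma estimates with 95% confidence intervals not adjusted for multiple testing, coloured by call, and open diamonds are the estimates after correction for GC content and transcript length. Most circles lie between 0.4 and 1.4, *Cdt1* alone is blue at -0.68, and *Rpa3* and *Gmnn* are among the genes whose diamond lies far to the left of the circle.

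The calls depended on how the WT libraries and base composition were treated. With the WT libraries as 1 sample, 28 of the 46 genes remained higher, against 7.21% of all genes, and *Cdt1* remained lower, against 8.73%. The 12 that lost their call were *Orc2*, *Orc3*, *Orc5*, *Gmnn*, *Mcm6*, *Dbf4*, *Pola2*, *Pold3*, *Rfc5*, *Rpa1*, *Rpa3* and *Lig1*. After correction of each library for GC content and transcript length, 35 were higher, against 31.9% of all genes, and *Cdt1* and *Pole4* were lower, against 25.1%. When both were applied together, an alternative added after seeing the data, no replication gene passed the threshold, and only 25 of the 10245 genes with a GC value did. Without cKO 2, the cKO library that was lowest for most of these genes, 42 were higher, against 40.1% of all genes, and 2 were lower, against 34.4%.

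**Figure D2:**
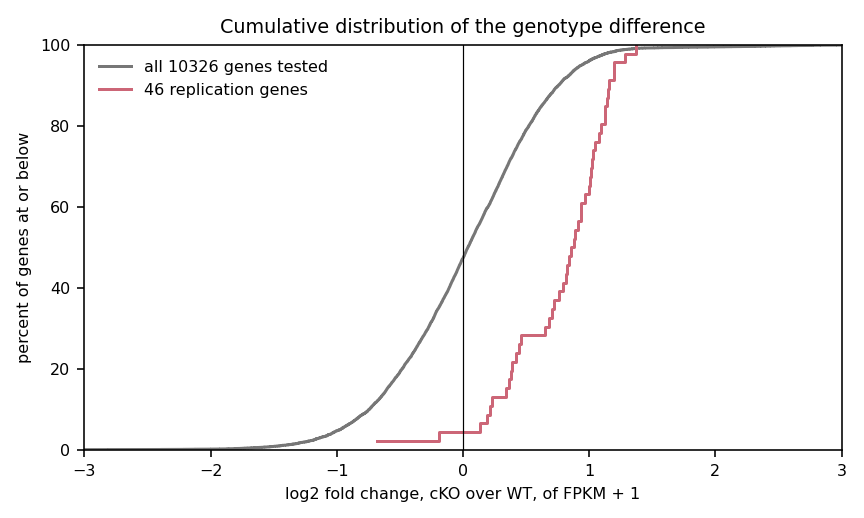
Cumulative percent of genes (vertical axis) at or below each log2 fold change of FPKM + 1, cKO over WT (horizontal axis), for all 10326 genes tested in grey and the 46 replication genes in red. The grey line crosses 50% near 0 and the red line near 0.87, and the axis is limited to values between -3 and 3.

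FPKM totals per library were 521296 to 531517 in WT and 701396 to 850548 in cKO, so the scaling between libraries set part of each value. Scaling every library to the same FPKM total moved the median of all genes tested to -0.45 and that of the replication genes to 0.33. Relative to the median of all genes, the replication genes then stood at 0.79, and at 0.83 with the main scaling. Under the same total, 27 of the 46 genes were called higher, against 8.74% of all genes, and 4 (*Cdt1*, *Pole4*, *Pold3* and *Rfc5*) lower, against 59.9%. *Orc2*, *Orc3*, *Orc5*, *Orc6*, *Gmnn*, *Mcm6*, *Dbf4*, *Pola2*, *Rfc1*, *Rpa1* and *Lig1* lost their call.

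The levels of the 46 genes spanned a wide range. Mean FPKM ran from 2.4 for *Mcm8* to 409 for *Pcna* in WT, and from 4.05 for *Orc1* to 897 for *Pcna* in cKO. The median FPKM over the 46 genes was 25.5, 26.4 and 25.0 in WT 1, 2 and 3 and 41.7, 43.1 and 44.8 in cKO 1, 2 and 3. *Pcna*, *Mcm7*, *Rpa3* and *Rpa1* held the first 4 places in both genotypes. *Cdt1* stood at rank 19 in WT and rank 38 in cKO, *Pole4* at ranks 16 and 28, and *Cdc45* at ranks 30 and 21.

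The ORC genes, whose products mark origins, showed the smallest median difference of the role groups with at least 4 genes, a log2 fold change of 0.39. Of the 6 genes, 4 (*Orc2*, *Orc3*, *Orc5* and *Orc6*) were higher. *Orc6* (chr8:85299632-85308279, mm10), the subunit that is held least tightly in the complex, had an FPKM of 24.7, 26.4 and 25.3 in WT and of 38.4, 48.2 and 48.3 in cKO. It had the largest difference of the group, at a log2 fold change of 0.79 ± 0.097 (SE; limma adjusted p = 0.000563), and its groups did not overlap. After GC and length correction *Orc6* stood at 0.31, below *Orc2* at 0.33, and under the same FPKM total it did not pass, at 0.25 (limma adjusted p = 0.116).

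*Orc4* (chr2:48902824-48952902), an ATPase-fold subunit of the core complex, had the smallest difference. Its FPKM was 22.8, 23.4 and 22.9 in WT and 22.4, 31.1 and 23.7 in cKO. The groups overlapped, with cKO 2 alone well above WT, and the log2 fold change was 0.14 (95% confidence interval -0.14 to 0.41, limma adjusted p = 0.326). *Orc1* (chr4:108575705-108616030), the subunit whose level is known to cycle, had an FPKM of 3.52, 3.38 and 3.08 in WT and of 3.43, 4.84 and 3.88 in cKO. Its log2 fold change was 0.21 (95% confidence interval -0.054 to 0.48, limma adjusted p = 0.135), and its groups overlapped. *Orc1* was called higher with quantile normalization, at 0.38 (limma adjusted p = 0.0168), and without cKO 1, at 0.31 (limma adjusted p = 0.0398). In the annotation *Orc1* overlaps *Prpf38a*, whose mean FPKM was 40.6 in WT and 74.2 in cKO. After correction for GC content and length, only *Orc2* and *Orc6* remained higher, and the median of the ORC genes was 0.086. Under the same FPKM total 0 of the 6 were called higher, and all but *Orc6* turned to a negative log2 fold change.

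The 3 loading factors split. *Cdc6* (chr11:98907709-98923942), the ATPase that brings MCM2-7 to ORC, had an FPKM of 8.08, 8.49 and 8.55 in WT and of 20.1, 18.0 and 21.2 in cKO. Every cKO library exceeded every WT library, with a log2 fold change of 1.14 ± 0.079 (SE; limma adjusted p = 0.000111). *Cdt1* (chr8:122568015-122573130), its partner in loading, went the other way. Its FPKM was 33.1, 32.1 and 31.4 in WT and 18.6, 21.9 and 18.8 in cKO, again with no overlap. The mean was 32.2 ± 0.87 in WT and 19.7 ± 1.83 in cKO (SD, n = 3 each), a log2 fold change of -0.68 ± 0.076 (SE; limma adjusted p = 0.000403). *Cdt1* stayed lower under every alternative run, though not below the threshold when GC correction and the single WT sample were combined. Its log2 fold change was -0.29 after GC correction, and its GC content of 58.8% is among the highest of the 46 genes.

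*Gmnn* (chr13:24751845-24761937), which encodes geminin, the inhibitor of CDT1, had an FPKM of 61.2, 56.7 and 56.2 in WT and of 80.5, 125 and 124 in cKO. The cKO libraries lay above WT and spread widely, with cKO 1 the lowest, at a log2 fold change of 0.88 ± 0.17 (SE; limma adjusted p = 0.00311). After GC and length correction it was 0.39 and did not pass (limma adjusted p = 0.0613). Within a library, the ratio of *Cdt1* to *Gmnn* does not depend on the scaling between libraries. It was 0.542, 0.567 and 0.559 in WT and 0.232, 0.175 and 0.152 in cKO, and the geometric mean in cKO was 0.329 times that in WT. This ratio is not corrected for GC content and length. With that correction the 2 genes lay closer together, at log2 fold changes of -0.29 for *Cdt1* and 0.39 for *Gmnn*, against -0.68 and 0.88 without it. The ratio of *Cdc6* to *Cdt1* was 0.244, 0.264 and 0.272 in WT and 1.08, 0.824 and 1.13 in cKO. Neither ratio overlapped between genotypes. An exact two-sided permutation test gave p = 0.1 for each, the smallest value that 3 against 3 libraries allows, and 0.125 after adjustment over the 20 sums and ratios computed.

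All 6 MCM2-7 genes were higher in cKO, and none of their groups overlapped. *Mcm5* (chr8:75109468-75128439) showed the largest difference, with an FPKM of 48.9, 49.7 and 47.0 in WT and of 142, 88.1 and 137 in cKO, where cKO 2 lay far below the other two. Its log2 fold change was 1.28 ± 0.18 (SE; limma adjusted p = 0.000893). *Mcm6* (chr1:128331575-128359705) showed the smallest, with an FPKM of 71.0, 67.2 and 68.3 in WT and of 117, 97.8 and 118 in cKO. Its log2 fold change was 0.68 ± 0.093 (SE; limma adjusted p = 0.000849). With the WT libraries as 1 sample *Mcm6* was the one MCM2-7 gene that did not pass (limma adjusted p = 0.0621).

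The other 4 subunits lay between these. *Mcm7* (chr5:138164583-138172111), whose intron holds the miR-106b cluster, was the most abundant of the helicase genes, with an FPKM of 111, 112 and 108 in WT and of 251, 213 and 263 in cKO. *Mcm2* had 54.5, 54.1 and 52.0 in WT and 105, 84.0 and 102 in cKO. *Mcm3* had 50.7, 48.8 and 49.3 in WT and 91.6, 80.3 and 101 in cKO. For each of them cKO 2 was the lowest cKO library and still lay well above WT. *Mcm4* had 39.6, 38.1 and 36.4 in WT and 73.6, 67.9 and 76.5 in cKO. The log2 fold changes of *Mcm7*, *Mcm2*, *Mcm3* and *Mcm4* were 1.12, 0.84, 0.85 and 0.91.

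**Figure D3:**
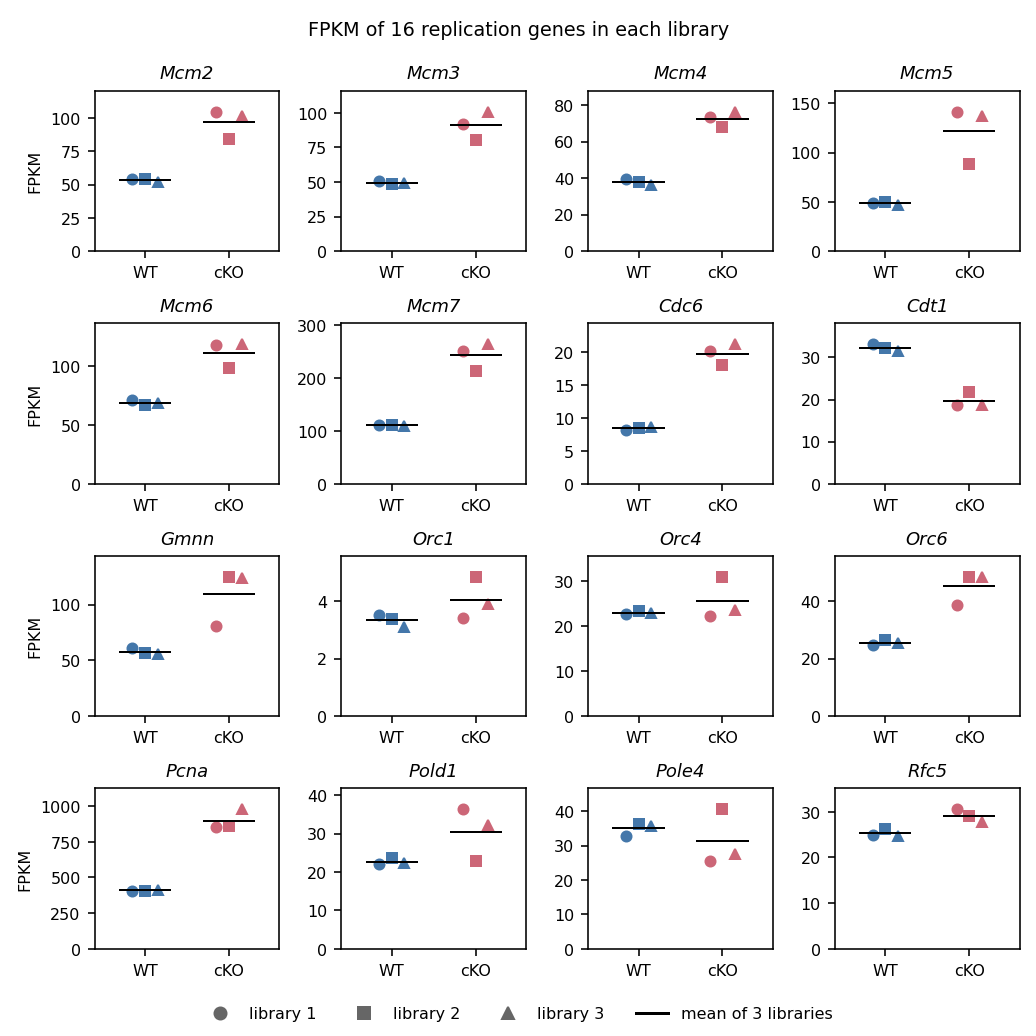
FPKM (vertical axis, from 0, a different scale in each panel) of 16 replication genes in each of the 3 WT and 3 cKO libraries, with horizontal bars at the group means and a marker shape for each library number. The cKO points lie above the WT points for *Mcm2* to *Mcm7*, *Cdc6*, *Gmnn*, *Orc6*, *Pcna* and *Rfc5*, below them for *Cdt1*, and overlap them for *Orc1*, *Orc4*, *Pold1* and *Pole4*.

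The 6 proteins form a ring of equal parts, yet their transcripts did not keep their proportions. *Mcm6* made up 18.7% of the summed MCM2-7 FPKM in WT and 15.1% in cKO, where the libraries ranged from 18.2 to 18.9% and from 14.8 to 15.5%. *Mcm7* made up 29.9% in WT and 33.0% in cKO, with ranges of 29.5 to 30.2% and 32.2 to 33.7%. The share of *Mcm5* was 13.2% in WT and 16.4% in cKO, and it was 14.0% in cKO 2. These shares do not depend on the scaling between libraries, and no test was made of them.

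The promoters of *Cdc6*, *Mcm5*, *Mcm6* and *Orc1* are shown, of the 10 genes with E2F letters wholly before the start, because they include loading and helicase genes and because *Orc1* did not pass the test while the other 3 were higher. RefSeq sequence of GRCm38.p6 is given for the 170 bases before the start of the RefSeq entry. It is written in the direction of transcription, on the strand named. For *Cdc6* and *Orc1* these bases lie wholly inside the gene coordinates given above, and for *Mcm5* partly. The start used for these 3 genes is therefore not the start of those coordinates. The searched E2F letters (TTTCCCGC, TTTCGCGC, TTTGCCGC and TTTGGCGC, on either strand) are in capitals. Where 12 capitals run together, matches on opposite strands overlap by 4 bases.
Cdc6, chr11:98907981-98908150, plus strand: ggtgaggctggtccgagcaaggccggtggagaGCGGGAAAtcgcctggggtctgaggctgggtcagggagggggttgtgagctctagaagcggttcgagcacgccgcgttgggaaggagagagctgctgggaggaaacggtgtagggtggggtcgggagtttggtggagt
Mcm5, chr8:75109339-75109508, plus strand: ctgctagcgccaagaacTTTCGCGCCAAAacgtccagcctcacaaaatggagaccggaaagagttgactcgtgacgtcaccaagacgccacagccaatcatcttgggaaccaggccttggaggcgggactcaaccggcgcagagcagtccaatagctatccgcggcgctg
Mcm6, chr1:128359706-128359875, minus strand: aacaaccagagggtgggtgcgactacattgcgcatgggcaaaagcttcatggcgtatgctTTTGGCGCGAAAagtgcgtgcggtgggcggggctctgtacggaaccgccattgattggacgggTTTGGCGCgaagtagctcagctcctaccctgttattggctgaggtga
Orc1, chr4:108579284-108579453, plus strand: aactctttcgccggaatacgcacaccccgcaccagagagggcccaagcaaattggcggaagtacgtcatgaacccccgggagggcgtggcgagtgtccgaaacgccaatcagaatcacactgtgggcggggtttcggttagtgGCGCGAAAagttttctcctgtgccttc

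The farthest match starts 138 bases before the start in *Cdc6*, 153 in *Mcm5*, 110 in *Mcm6* and 27 in *Orc1*. In the full window of 250 bases before to 50 bases after the start, 17 of the 38 replication genes with a RefSeq entry (44.7%) held at least 1 of these letters, against 2.6% of all 27025 genes with an entry and 5.17% of the 7923 tested genes among them. The single match in *Cdt1* does not lie wholly before the start. The letters CCAAT, searched on both strands, stood in 22 of the 38 (57.9%) and in 41.1% of all genes. The E2F letters did not sort the replication genes by their difference. The median log2 fold change was 0.82 over the 17 genes with them, 13 of which were higher, and 0.84 over the 21 without, 19 of which were higher. *Pcna* had a CCAAT match and no E2F match. These are matches of letters and do not show binding.

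Of the 8 genes that switch the helicase on, 7 were higher, with a median log2 fold change of 0.93. *Mcm10* (chr2:4990724-5012791), a scaffold for the activated helicase, differed most. Its FPKM was 7.71, 8.46 and 8.05 in WT and 22.3, 15.5 and 22.4 in cKO, a log2 fold change of 1.20 ± 0.14 (SE; limma adjusted p = 0.000518) with no overlap. *Cdc7* (chr5:106964315-106984440), the kinase subunit that phosphorylates the MCM ring, differed least. Its FPKM was 19.4, 19.1 and 19.1 in WT and 22.1, 31.5 and 21.3 in cKO, so the groups did not overlap and cKO 2 was well above the rest. The log2 fold change was 0.34 and did not pass (limma adjusted p = 0.0633). *Cdc7* was called higher without cKO 2, at 0.18 (limma adjusted p = 0.0124), and without cKO 3, at 0.44 (limma adjusted p = 0.0452). The ratio of *Dbf4*, its activating subunit, to *Cdc7* averaged 1.69 in WT and 1.74 in cKO, and the groups overlapped (exact two-sided permutation p = 0.9).

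*Cdc45*, which bridges the MCM ring and GINS, had the smallest standard error of the 46 genes. Its FPKM was 19.9, 20.7 and 21.1 in WT and 44.9, 44.4 and 45.7 in cKO, a log2 fold change of 1.09 ± 0.058 (SE). The 4 GINS genes were all higher, with log2 fold changes of 0.89 for *Gins1*, 1.03 for *Gins2*, 0.82 for *Gins3* and 0.97 for *Gins4*. After GC and length correction they were less alike, at 0.31, 1.27, 0.70 and 0.60 in the same order, and all stayed called higher. *Gins2* overlaps *Gse1*, whose mean FPKM was 72.0 in WT and 33.6 in cKO. *Mcm8*, which forms a separate helicase with MCM9 in homologous recombination, was the least abundant of the 46 genes in WT. Its FPKM was 2.12, 2.37 and 2.72 in WT and 4.61, 5.20 and 5.21 in cKO, a log2 fold change of 0.82 (limma adjusted p = 0.000433).

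The genes of the enzyme that starts each strand were all higher, 4 of 4, with a median log2 fold change of 1.01. *Pola1* (chrX:93304766-93632387), the catalytic subunit of polymerase alpha, had an FPKM of 11.6, 12.2 and 11.8 in WT and of 25.4, 23.3 and 30.1 in cKO, with a log2 fold change of 1.08. *Pola2* (chr19:5940543-5964238), its accessory subunit, had 20.1, 20.0 and 19.7 in WT and 29.4, 23.4 and 29.9 in cKO, with a log2 fold change of 0.44. The groups overlapped in neither gene, and *Pola2* did not pass with the WT libraries as 1 sample (limma adjusted p = 0.147). The primase genes *Prim1* and *Prim2* both had a log2 fold change of 1.01.

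Polymerase epsilon, which extends the leading strand, had 3 of its 4 genes higher. *Pole3* (chr4:62523798-62525014), a histone-fold subunit, had the largest difference, with an FPKM of 39.4, 34.5 and 38.2 in WT and of 93.4, 59.8 and 85.2 in cKO and a log2 fold change of 1.04. *Pole4* (chr6:82616532-82653043), its histone-fold partner, did not follow. Its FPKM was 32.9, 36.4 and 35.8 in WT and 25.6, 40.5 and 27.6 in cKO, where cKO 2 lay above every WT library and the other 2 cKO libraries lay below. The log2 fold change of *Pole4* was -0.19 (95% confidence interval -0.56 to 0.19, limma adjusted p = 0.327). *Pole4* was called lower without cKO 2 and after GC and length correction, where its log2 fold change was -0.64 (limma adjusted p = 0.0106). The catalytic *Pole* and the second subunit *Pole2* had log2 fold changes of 0.76 and 0.94.

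Polymerase delta, which extends the lagging strand, was uneven too. *Pold2* (chr11:5872180-5878256), an accessory subunit, had an FPKM of 16.3, 17.4 and 17.2 in WT and of 49.0, 30.1 and 43.9 in cKO, a log2 fold change of 1.19 ± 0.17 (SE; limma adjusted p = 0.000973). *Pold3* (chr7:100082110-100121502), a subunit that binds PCNA, had 20.1, 19.5 and 20.9 in WT and 23.3, 25.1 and 23.3 in cKO, a log2 fold change of 0.23 (limma adjusted p = 0.0143). Under the same FPKM total *Pold3* was called lower, at -0.30. The catalytic *Pold1* (chr7:44532744-44548815), described after its values were seen, had 22.2, 23.5 and 22.3 in WT and 36.3, 22.8 and 32.4 in cKO. The value of cKO 2 lay within the WT range, and the log2 fold change of 0.39 did not pass (limma adjusted p = 0.0704). *Pold1* has the highest GC content of the 46 genes, 60.7%, and was called higher without cKO 2 and after GC and length correction, at 1.00 (limma adjusted p = 0.00188).

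The clamp gene *Pcna* (chr2:132249286-132253180) was the most abundant replication gene in every library. Its FPKM was 407, 408 and 412 in WT and 856, 858 and 977 in cKO, a log2 fold change of 1.13 ± 0.095 (SE; limma adjusted p = 0.000175). *Pcna* stayed called higher after GC and length correction, at 0.66. With quantile normalization and the WT libraries as 1 sample, an alternative added after seeing the data, it did not pass.

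The 5 clamp loader genes were all higher, by unequal amounts. *Rfc4* (chr16:23113948-23127730) had an FPKM of 30.0, 26.6 and 31.5 in WT and of 79.8, 66.2 and 88.1 in cKO, a log2 fold change of 1.37 ± 0.12 (SE; limma adjusted p = 0.000195) that was 0.75 after GC and length correction. It overlaps *Eif4a2*, whose mean FPKM was 154 in WT and 150.1 in cKO. *Rfc5* (chr5:117379145-117389023) had 25.0, 26.3 and 24.8 in WT and 30.5, 29.0 and 27.7 in cKO. Its log2 fold change was 0.19 (limma adjusted p = 0.0359), and it lost its call under several alternatives and was called lower, at -0.35, under the same FPKM total. *Rfc5* made up 17.1% of the summed clamp loader FPKM in WT and 9.66% in cKO, with ranges of 16.8 to 17.8% and 8.80 to 11.0%. *Rfc4* and *Rfc5* encode similar small subunits of the same pentamer, and the share of *Rfc4* was 19.8% in WT and 25.7% in cKO. The shares are not corrected for GC content and length, and with that correction the log2 fold change was 0.75 for *Rfc4* and 0.15 for *Rfc5*. No test was made of these shares.

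The 3 RPA genes were higher, and with the WT libraries as 1 sample *Rpa2* alone passed (limma adjusted p of 0.056 for *Rpa1* and 0.0515 for *Rpa3*). *Rpa2* (chr4:132768360-132778746), the subunit phosphorylated under replication stress, had an FPKM of 33.9, 33.1 and 33.4 in WT and of 66.9, 62.8 and 74.0 in cKO, with a log2 fold change of 1.00. *Rpa1* (chr11:75300259-75348454), the main DNA-binding subunit, had 75.7, 75.8 and 76.8 in WT and 129, 112 and 135 in cKO, with a log2 fold change of 0.71, or 0.15 and not called under the same FPKM total. The smallest subunit gene, *Rpa3*, had a log2 fold change of 0.93, which was -0.099 after GC and length correction (limma adjusted p = 0.472). Its annotated transcript is the shortest of the 46, at 670 nucleotides, and its GC content is 40.4%.

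The enzymes that join Okazaki fragments were both higher. *Fen1* (chr19:10199132-10204393), the flap nuclease, had an FPKM of 39.6, 39.1 and 40.0 in WT and of 87.3, 64.2 and 98.0 in cKO, with a log2 fold change of 1.03 (limma adjusted p = 0.00104). It overlaps *Tmem258*, whose mean FPKM was 258 in WT and 541 in cKO. *Lig1* (chr7:13277175-13311426), the ligase, had 37.0, 36.6 and 36.5 in WT and 72.7, 48.2 and 65.8 in cKO, with a log2 fold change of 0.72 (limma adjusted p = 0.0042). *Lig1* did not pass with the WT libraries as 1 sample (limma adjusted p = 0.0879) or under the same FPKM total, at 0.17 (limma adjusted p = 0.187). In both genes cKO 2 was the lowest cKO library and lay above WT. Of the 46 genes, 11 overlap another gene listed in the files, and the strand setting used for counting is not given in the sources used here.

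Summed over subunits, the complexes differed by unequal amounts. The ORC sum was 88.0, 91.3 and 89.1 in WT and 115, 136 and 127 in cKO, a ratio of geometric means of 1.41 of cKO over WT. Under the same FPKM total its log2 difference turned to -0.071. The MCM2-7 sum was 375, 369 and 361 in WT and 780, 631 and 798 in cKO, a ratio of 1.99, and its log2 difference was 0.43 under the same total. The ratio was 1.97 for GINS, 1.93 for polymerase alpha-primase, 2.04 for RFC, 1.84 for RPA, 1.59 for polymerase epsilon and 1.58 for polymerase delta. None of the 8 sums overlapped between genotypes, and each had an exact two-sided permutation p of 0.1, the smallest possible (0.125 adjusted over the family of 20). These ratios are of FPKM without a pseudocount.

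Ratios within a library removed the scaling. MCM2-7 over ORC was 4.26, 4.05 and 4.05 in WT and 6.78, 4.63 and 6.28 in cKO, with no overlap (exact two-sided permutation p = 0.1, adjusted 0.125). GINS, polymerase alpha-primase, RFC and RPA over ORC likewise did not overlap, with geometric means in cKO 1.40, 1.37, 1.45 and 1.31 times those in WT. Polymerase epsilon over ORC (p = 0.4) and polymerase delta over ORC (p = 0.6) overlapped in the same exact permutation test, as did *Pcna* over RFC (p = 0.4). In each ratio over ORC, cKO 2 was the lowest cKO library. The ratios were chosen after the gene values were known.

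**Figure D4:**
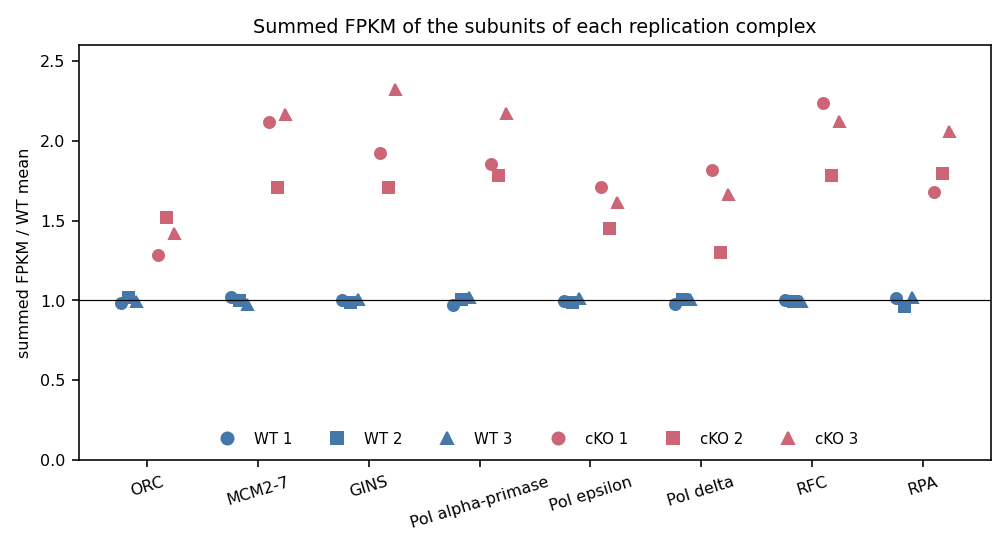
Summed FPKM of the subunits of 8 replication complexes in each library, divided by the WT mean of that complex (vertical axis, from 0). The WT points lie near 1, the cKO points lie above them in every complex, lowest for ORC at a mean of 1.41 and highest for RFC at 2.05, and cKO 2 (squares) is the highest cKO library for ORC and the lowest for 6 of the other 7.

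cKO 2 was the lowest cKO library for 27 of the 46 genes, the middle one for 10 and the highest for 9. cKO 3 was the highest for 26. The log2 ratio of cKO 2 to the mean of the other cKO libraries fell with GC content over the 46 genes (Spearman rho -0.58 across genes, which share these libraries and are not replicates) and less so over all genes tested (-0.16). The log2 fold change itself had a rho of -0.33 with GC content and -0.30 with transcript length over all genes tested, and of 0.17 and -0.14 over the 46 genes.

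Other origin and fork factors numbered 31, all tested, of which 21 were higher and 1 lower, against 35.8% and 29.8% of all genes, with a median log2 fold change of 0.40. With the WT libraries as 1 sample, 9 were higher and 0 lower, against 7.21% and 8.73%. After GC and length correction, 24 of the 30 with a GC value were higher and 0 lower, against 31.9% and 25.1%, with a median of 0.56. The list was not tested against the 46 genes. *Dscc1*, a subunit of the alternative clamp loader that serves cohesion, had an FPKM of 4.54, 4.59 and 4.61 in WT and of 12.4, 11.1 and 15.1 in cKO, a log2 fold change of 1.30 (limma adjusted p = 0.000179). *Chaf1b*, a subunit of the histone chaperone CAF-1, had 15.0, 15.8 and 16.3 in WT and 43.8, 25.9 and 39.4 in cKO, a log2 fold change of 1.13 (limma adjusted p = 0.00167). The one lower gene was *Chtf18*, the large subunit of the clamp loader to which DSCC1 belongs. Its FPKM was 7.08, 6.59 and 6.71 in WT and 5.59, 4.96 and 5.51 in cKO, a log2 fold change of -0.30 (limma adjusted p = 0.0114). After GC and length correction *Chtf18* was instead called higher, at 0.25 (limma adjusted p = 0.0243).

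Markers of other cells were measured beside these genes. Of the 8 markers of double negative and immature single positive thymocytes, the stages before DP, 5 of the 7 tested were lower, against 29.8% of all genes, and none was higher. Their summed FPKM was 75.1 to 76.3 in WT and 45.7 to 57.3 in cKO, and *Kit* was under an FPKM of 1 in all libraries. Of 8 markers of mature single positive thymocytes, 7 were lower, against the same 29.8%, with sums of 167 to 168 in WT and 135 to 150.0 in cKO. The 5 erythroid markers summed to 1.96 to 2.75 in WT and 12.4 to 26.6 in cKO, carried by the globin genes, with *Epor* near 0. Of the 6 B cell markers 5 were under an FPKM of 1 in all libraries. The sum of all 6 was 22.8 to 24.2 in WT and 26.7 to 39.4 in cKO, carried by *Cd79b*, with a mean FPKM of 22.4 in WT and 33.0 in cKO. The 6 myeloid markers summed to 5.10 to 6.07 and 5.72 to 6.18, and the 5 thymic epithelial markers to 3.56 to 3.98 and 1.92 to 3.67, with *Foxn1* and *Krt5* listed at 0. The part of these cells in the replication genes was not tested.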

How the data were processed

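Sorted DP thymocytes of 3 WT and 3 NSrp70-cKO libraries were profiled by poly(A)-enriched, strand-specific mRNA-seq. The authors trimmed paired-end reads, aligned them to mm10 by Tophat and deposited the FPKM values that Cufflinks gave, 1 for each gene symbol and library. Tool versions, the annotation and the strand setting of the counting are not given in the sources used here. Their DESeq2 test of counts was not repeated, since FPKM values are not counts. At an adjusted p under 0.05, the paper reports far fewer genes in each direction from that test than the limma fit called here.

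The 46 genes and all gene lists were chosen with earlier results of these data known. Libraries were scaled by median-of-ratios size factors. The 10326 genes with 3 or more libraries at an FPKM of 1 or above were fitted as log2(FPKM + 1) by genotype with limma 3.58.1 (R 4.3.3; lmFit, eBayes with trend), with Benjamini-Hochberg adjustment at 0.05 over all of them. Fold changes on this scale understate those of low genes. In simulated data of 10326 genes, 82 of 100 2-fold changes, 98 of 100 4-fold changes and 5 of 10126 unchanged genes were called. Far fewer genes were changed in the simulation than were called in the data, so these rates may not hold here. Sums and ratios of FPKM were compared by exact permutation tests over libraries in scipy 1.17.1. Lengths and GC content came from GENCODE mouse release M21 on GRCm38, and the correction used natural splines with 5 degrees of freedom in each library. Depth was estimated at 2608 single-transcript genes with an assumed fragment length of 200 nucleotides, where 69.7 to 76.9% of low values lay within 0.1 of a whole fragment, too few for counts to be recovered. Coordinates are of GRCm38 (mm10), 1-based.

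Values in every library are given for the genes with the largest and smallest absolute log2 fold change of each role group with 3 or more genes, for all genes of smaller groups, for *Pcna*, *Mcm2* to *Mcm7*, *Cdt1*, *Gmnn* and *Orc1*, and for the 2 largest changes in each direction, past the threshold, of the other lists. *Pold1* and *Cdc45* were added after their values were seen. Alternatives covered pseudocount, filter, scaling, variance trend, replicate block, the WT libraries as 1 sample, GC and length correction and each library left out. Same-numbered WT and cKO libraries did not deviate together, with correlations of -0.022, 0.038 and 0.031 over the genes tested. Some marker genes are not reported here by name.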

Additional observations from a re-analysis of the deposited data

How the results depend on the processing

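Pseudocounts of 0.1 and 0.01, no filter, an FPKM minimum of 5 (44 genes tested), no scaling and no variance trend kept the direction and the call of every replication gene tested. Leaving out each library in turn gave 38 to 42 genes higher, against 30.4 to 40.1% of all genes, 1 to 2 lower, against 23.0 to 34.4%, and a median log2 fold change of 0.79 to 0.92. The log2 difference then ranged from 0.93 to 1.10 for the MCM2-7 sum, 0.43 to 0.56 for the ORC sum, 0.39 to 0.66 for MCM2-7 over ORC and -1.77 to -1.47 for *Cdt1* over *Gmnn*. With a replicate block, 38 genes were higher, against 34.0% of all genes, with *Pold3* and *Rfc5* losing their calls, and the numbers do not pair the libraries. Quantile normalization gave a median of 0.69. GC and length correction gave 2 genes lower and a median of 0.71, with *Orc4* at -0.064 and *Rpa3* at -0.099. With the WT libraries as 1 sample in addition, 0 genes were higher and 0 lower, against 0.0586% and 0.185% of all genes, at the same median of 0.71. Quantile normalization with the WT libraries as 1 sample left 21 higher, against 6.78% of all genes, at a median of 0.69. Both combinations were chosen after seeing the data.

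The same FPKM total gave 4 genes lower, a median of 0.33, an MCM2-7 difference of 0.43 and an ORC difference of -0.071. It turned the direction of 11 genes, with log2 fold changes of -0.23 for *Orc1*, -0.064 for *Orc2*, -0.15 for *Orc3*, -0.40 for *Orc4*, -0.11 for *Orc5*, -0.19 for *Cdc7*, -0.17 for *Dbf4*, -0.099 for *Pola2*, -0.16 for *Pold1*, -0.30 for *Pold3* and -0.35 for *Rfc5*. The scaling itself moved the median of all genes to -0.45. The cause of the other changes was not tested. With FPKM values alone, counting error enters no test, and it weighs most on the least abundant genes, such as *Mcm8* and *Orc1*.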

Other observations

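DNA polymerases that serve repair, bypass of damage, mitochondria or antigen receptor diversity, rather than the replication fork, were also listed. Of 15 listed, 13 passed the filter on low values, and 6 of these were higher, 4 lower and 3 not called, against 35.8% higher and 29.8% lower over all genes, with a median log2 fold change of 0.18. With the WT libraries as 1 sample, 0 were higher and 2 lower, against 7.21% and 8.73%. *Dntt*, the template-independent polymerase that adds nucleotides at antigen receptor junctions, was the most abundant, with an FPKM of 1182, 1181 and 1139 in WT and of 2437, 1804 and 2428 in cKO. Its log2 fold change was 0.91 (limma adjusted p = 0.00199), and 0.094 with quantile normalization. *Polq*, the polymerase of theta-mediated end joining, had 2.65, 2.59 and 2.69 in WT and 3.65, 4.87 and 3.37 in cKO, a log2 fold change of 0.43 (limma adjusted p = 0.0141).

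The mitochondrial polymerase gene *Polg* and *Polm*, an end-joining polymerase related to *Dntt*, were lower. *Polg* had an FPKM of 41.4, 40.9 and 42.8 in WT and of 19.9, 24.5 and 20.4 in cKO, a log2 fold change of -0.92 (limma adjusted p = 0.000222). *Polm* had 6.11, 6.74 and 6.74 in WT and 2.76, 3.33 and 2.94 in cKO, a log2 fold change of -0.91 (limma adjusted p = 0.000217). Neither group of values overlapped, both genes stayed lower with the WT libraries as 1 sample, and after GC and length correction they stood at -0.55 and -0.53.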
